A study of Mus musculus with 3 samples.

Results

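The genes described here are the angiopoietins Angpt1 and Angpt2, the angiopoietin-like genes Angptl2, Angptl4 and Angptl6, and the Tie receptor genes Tek and Tie1. They are 7 of the 24840 named genes on the array, and they were found by gene symbol among the spots that are not controls. They were read by 10 probes, with 1 probe for 5 of the genes, 2 probes for Angpt2 and 3 probes for Angptl2. Each probe was printed as 1 spot. The genes were chosen with their measured values in view, so those values are given as a description.

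Angiopoietins are secreted ligands of Tek (also called Tie2), a receptor tyrosine kinase found mainly on endothelial cells. Angpt1 activates Tek and stabilises vessels, Angpt2 can oppose or weakly activate it depending on context, and Tie1 is a related receptor that modulates Tek signalling. Angiopoietin-like proteins share the coiled-coil and most also the fibrinogen-like domain of angiopoietins, and liver is a known source of several that act on lipid metabolism.

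RNA came from Hepa1c1c7 cells, a mouse hepatoma line, transfected with a Cd74 vector, a Tmem54 vector or an empty vector. Cd74 encodes the invariant chain of MHC class II and Tmem54 a transmembrane protein. Total RNA of each culture was labelled with Cy3 and hybridised to 1 array per vector, 3 arrays in all on 1 slide. As labelled, the groups differ in the vector alone, all 3 being transfected cells of the same line. An untransfected culture was not analysed here. Whether transfection was stable or transient, how long it lasted and whether a clone was picked are not given in the sources used here. With 1 array per vector no difference has a replicate check, no test was run, and the difference between vectors cannot be told apart from the difference between cultures.

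The array values behaved as labelled for the vectors. The Cd74 probe had a processed signal of 10855 on the Cd74 array, 22.4 on the Tmem54 array and 26.8 on the Empty array. The Tmem54 probe had 19747 on the Tmem54 array and did not clear background on the Cd74 array (2.83) or the Empty array (2.78). Between 55.7% and 57.2% of spots were well above background on each array, and 0 spots were saturated.

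The probes of the genes that carry the main differences, and those of Angptl2, which disagree in signal, begin with the following bases (5′ to 3′, the first 30 of 60, with nothing marked by capitals).
Angpt1: aatgccaacatgtgtgtagcaatttgatac
Angptl6: cgtggtggggcgtactctctgaagaaagct
Angptl2, brightest probe: tgtatgctcttagacagcacatcacacgtg
Angptl2, middle probe: cctgtgctaaatctctgaaaaagttaacta
Angptl2, dimmest probe: tacacaggtaggaaacaaagaaccaaacct
The Angpt1 probe (NM_009640) lies on the minus strand at chr15:42256343-42256402 in build mm9, and the Angptl6 probe (NM_145154) on the minus strand at chr9:20678326-20678385. The 3 Angptl2 probes lie on the plus strand at chr2:33102102-33102159 (NM_011923), chr2:33085511-33085570 and chr2:33099463-33099522. The remaining probes lie on chromosome 8 for Angpt2 (brighter probe 18690323 to 18690382, NM_007426), chromosome 17 for Angptl4 (33911880 to 33911939, NM_020581), and chromosome 4 for Tek (94540861 to 94540919, NM_013690) and Tie1 (118144132 to 118144191, NM_011587). No annotation of mm9 was used here, so exon and UTR are not assigned. GC content was 35.0% for the Angpt1 probe and 55.0% for the Angptl6 probe. Over their full 60 bases, the Angpt1 probe shared a run of 15 bases with 1 other probe of the array (gene 2610020F03Rik), while the other 9 probes shared no run of that length.

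Of the 7 genes, 5 were well above background on all 3 arrays: Angpt1, Angpt2, Angptl2, Angptl4 and Angptl6. Tek and Tie1 were not well above background on any array. Across the array, 15794 genes reached that mark on 1 or more arrays. Signals below are the deposited processed intensity on a linear scale, with the error that the scanner software's model assigns to the spot. This error covers noise within an array only. For bright spots it follows mainly from a preset multiplicative error of 0.1. For dim spots it is a larger share of the signal, up to the whole signal for Tek and Tie1. Differences are log2 values after each array was scaled to its own 75th percentile.

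**Figure D1:**
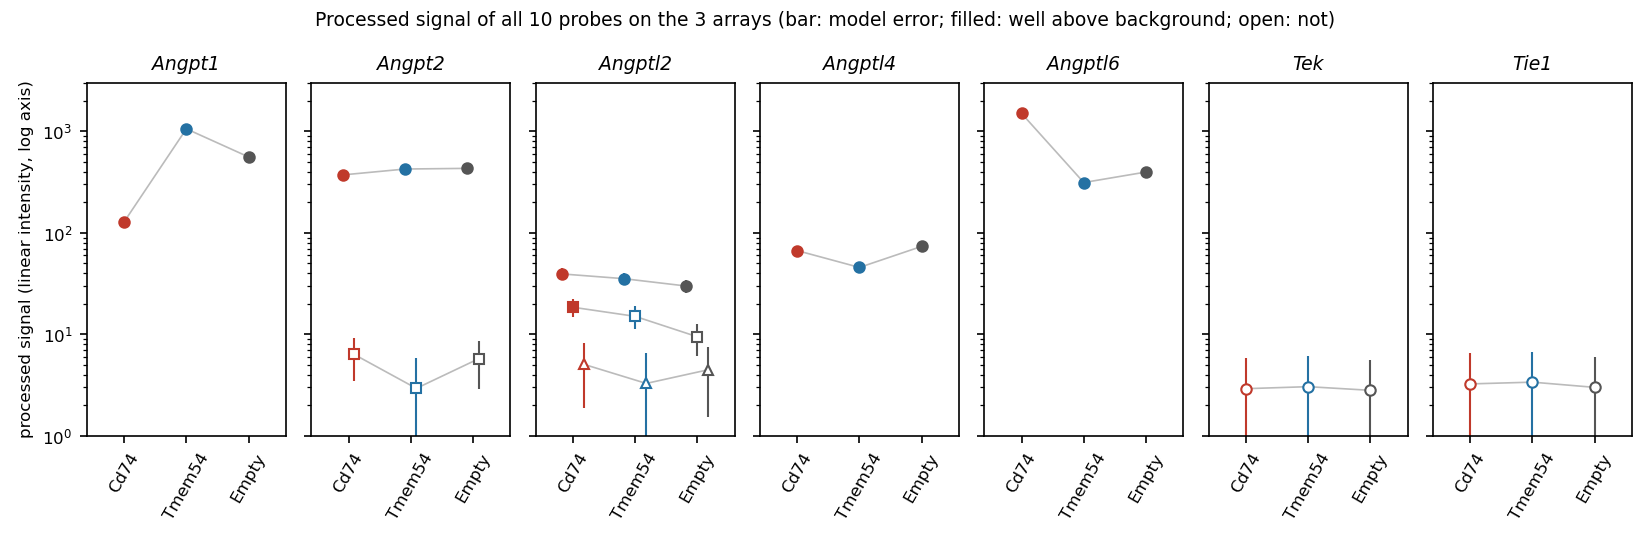
Processed signal (linear intensity on a log axis) of all 10 probes on the Cd74, Tmem54 and Empty arrays, 1 panel per gene. Circles, squares and triangles are the different probes of a gene, filled symbols are well above background, and bars are the model error. Angpt1 runs lowest and Angptl6 highest on the Cd74 array, while Tek and Tie1 stay near 3 on all arrays.

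Among the Tie ligands, Angpt1 had the widest spread over the arrays. Its signal was 129 ± 13.1 on the Cd74 array, 1060.0 ± 106 on the Tmem54 array and 560.2 ± 56.1 on the Empty array. The Cd74 array was thus the lowest and the Tmem54 array the highest, with the Empty array between them. Against Empty, Angpt1 differed by -2.06 with Cd74 (model error 0.21), that is 4.16-fold lower, and by 0.91 with Tmem54 (model error 0.20), 1.88-fold higher. Between the transfected genes the gap was larger: Cd74 minus Tmem54 was -2.97, with the Tmem54 array 7.81-fold above the Cd74 array. Each of these gaps exceeded the model error.

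Angpt2, the context-dependent ligand, differed little between the arrays. Its signal was 373 ± 37.4 on the Cd74 array, 426 ± 42.7 on the Tmem54 array and 432 ± 43.3 on the Empty array. The differences were -0.15 for Cd74 minus Empty, -0.03 for Tmem54 minus Empty and -0.11 for Cd74 minus Tmem54, each smaller than the model error of 0.20. A second Angpt2 probe, whose coordinates on chromosome 8 (18699153 to 18699460) are wider than its 60 bases, was not well above background on any array (6.34, 2.93 and 5.74 with Cd74, Tmem54 and Empty).

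Among the angiopoietin-like genes, Angptl6, which encodes a secreted protein also known as angiopoietin-related growth factor and produced by liver in mice, stood highest where Angpt1 stood lowest. Its signal was 1504 ± 150.4 on the Cd74 array, 313 ± 31.5 on the Tmem54 array and 398 ± 39.9 on the Empty array. The Tmem54 and Empty arrays lay close together. Cd74 minus Empty was 1.98 (model error 0.20, a 3.96-fold difference) and Cd74 minus Tmem54 was 2.34, or 5.07-fold. Tmem54 minus Empty was -0.36, which exceeded the model error of 0.20 but is a 1.28-fold difference.

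Angptl4 encodes an inhibitor of lipoprotein lipase. It had 66.8 ± 7.23 on the Cd74 array, 45.6 ± 5.38 on the Tmem54 array and 73.6 ± 7.82 on the Empty array. The Tmem54 array was the low one, with Tmem54 minus Empty at -0.70 (model error 0.23) and Cd74 minus Tmem54 at 0.63. The Cd74 and Empty arrays differed by -0.07, within the model error of 0.22.

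Angptl2, a secreted protein linked to inflammation, was dim. Its brightest probe had 39.4 ± 5.20 on the Cd74 array, 35.4 ± 5.04 on the Tmem54 array and 29.9 ± 4.38 on the Empty array. Cd74 minus Empty was 0.46 and exceeded the model error of 0.28, while Tmem54 minus Empty (0.23) and Cd74 minus Tmem54 (0.23) did not exceed theirs. The middle probe was well above background on the Cd74 array alone, with 18.5 there, 15.04 on the Tmem54 array and 9.46 on the Empty array, which gives at least 1.48-fold higher with Cd74 than with Empty. The dimmest probe was not well above background on any array (5.06, 3.28 and 4.48).

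The receptor genes were at the floor of the arrays. Tek had 2.91 on the Cd74 array, 3.05 on the Tmem54 array and 2.81 on the Empty array. Tie1 had 3.24 on the Cd74 array, 3.38 on the Tmem54 array and 3.0 on the Empty array. Each signal was no larger than its model error, so no difference is given for either gene. The lowest signal of a gene well above background was 13.5, 13.9 and 13.1 with Cd74, Tmem54 and Empty.

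At a difference of at least 2-fold, 1 of the 5 genes compared was higher with Cd74 than with Empty (Angptl6), 1 was lower (Angpt1) and 3 were within 2-fold. For Cd74 minus Empty, 1.02% of all genes were higher and 1.4% lower at that fold, bounds included. Counting only genes that cleared background on both arrays, as these 5 did, the shares were 0.422% and 0.885%. For Tmem54 minus Empty none of the 5 reached 2-fold, beside 0.522% higher and 0.812% lower over all genes (0.211% and 0.415% among those measured on both arrays). For Cd74 minus Tmem54, 1 was higher (Angptl6) and 1 lower (Angpt1), beside 1.63% and 1.69% over all genes (0.963% and 1.17% among those measured on both). The medians of the 5 genes were -0.07, -0.03 and 0.23 for Cd74 minus Empty, Tmem54 minus Empty and Cd74 minus Tmem54, against 0.02, 0.0004 and 0.02 over all genes. The genes were picked on these contrasts, so nothing is read from the counts. The comparisons share arrays, so they are not independent of each other.

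The place of each gene among all genes measured on both arrays is a description of the same values. For Cd74 minus Empty, Angpt1 was the 10th lowest and Angptl6 the 8th highest of 14691 genes. For Cd74 minus Tmem54, Angpt1 was the 2nd lowest and Angptl6 the 11th highest of 14543. For Tmem54 minus Empty, where the spread over all genes was narrower (robust SD 0.10, against 0.22 for Cd74 minus Empty), Angpt1 was the 38th highest of 14688 and Angptl4 the 142nd lowest. Across the genes with a pair of measured probes, the probes of a gene differed by a median of 0.11 for Cd74 minus Empty, and by up to 0.39 in 90% of genes.

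**Figure D2:**
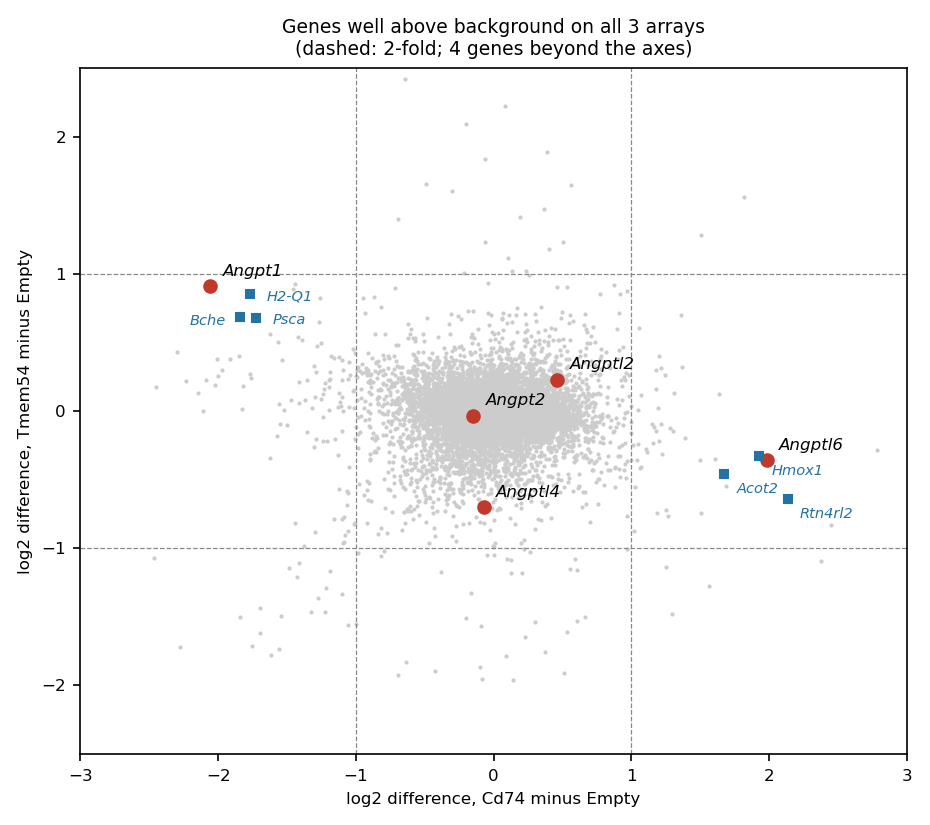
Log2 difference of the Tmem54 array from the Empty array (vertical) against that of the Cd74 array from the Empty array (horizontal) for the 14471 genes well above background on all 3 arrays. Red circles are the genes described here and blue squares the nearest genes of Angpt1 and Angptl6, and 4 genes lie beyond the axes. Angpt1 lies at -2.06 and 0.91, and Angptl6 at 1.98 and -0.36. Both axes share the Empty array.

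The genes with the most similar pair of differences, by Euclidean distance over Cd74 minus Empty and Tmem54 minus Empty on the 3 arrays, were found among 14470 others. For Angpt1 they were H2-Q1, an MHC class I gene (-1.77 and 0.85), Bche, which encodes butyrylcholinesterase (-1.84 and 0.69), and Psca, which encodes a membrane-anchored surface antigen (-1.73 and 0.68). No gene lay within a distance of 0.25 of Angpt1. In all, 12 genes, Angpt1 among them, were at least 2-fold lower with Cd74 and at least 0.5 higher with Tmem54.

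For Angptl6 the nearest genes were Hmox1, the heme oxygenase gene (1.93 and -0.33, at a distance of 0.065), Rtn4rl2, of the Nogo receptor family (2.14 and -0.64), and Acot2, a mitochondrial acyl-CoA thioesterase (1.67 and -0.46). Hmox1 was the 1 gene within 0.25 of Angptl6. In all, 38 genes, Angptl6 and the transfected gene Cd74 itself among them, were at least 2-fold higher with Cd74 and below 0 by any amount with Tmem54. Angpt2, whose differences were near 0, had 7242 genes within 0.25, the closest being Atp8b2, C1galt1 and Slc35a4. Angptl2 had 690 (Cyp1a1, Isoc2b and Dmkn the closest) and Angptl4 had 98 (Apom, Wdyhv1 and Mageb3).

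Genes that overlap or flank these loci in GRCm38.p6 were read beside them. Shfl, which overlaps Angptl6, differed by 0.07 with Cd74 and -0.07 with Tmem54 from Empty, and its neighbour Ppan by 0.09 and -0.09. Rdh8, on the other side, was dim and differed by -0.76 and -0.24. Mcph1, which overlaps Angpt2, differed by -0.04 and 0.06. The neighbours of Angpt1, Abra and Rspo2, were not well above background. Ralgps1, which overlaps Angptl2, differed by 0.16 and 0.04, and Garnl3 beside it by 0.56 and 0.10. Rab11b, beside Angptl4, differed by -0.22 and 0.01.

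Of the other genes of the family, Angptl8, which takes part in lipase inhibition, was well above background with a signal of 483 on the Cd74 array, 443 on the Tmem54 array and 415 on the Empty array. Its differences were 0.29 for Cd74 minus Empty and 0.08 for Tmem54 minus Empty. Angpt4, Angptl1 and Angptl7 were not well above background on any array.

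**Figure D3:**
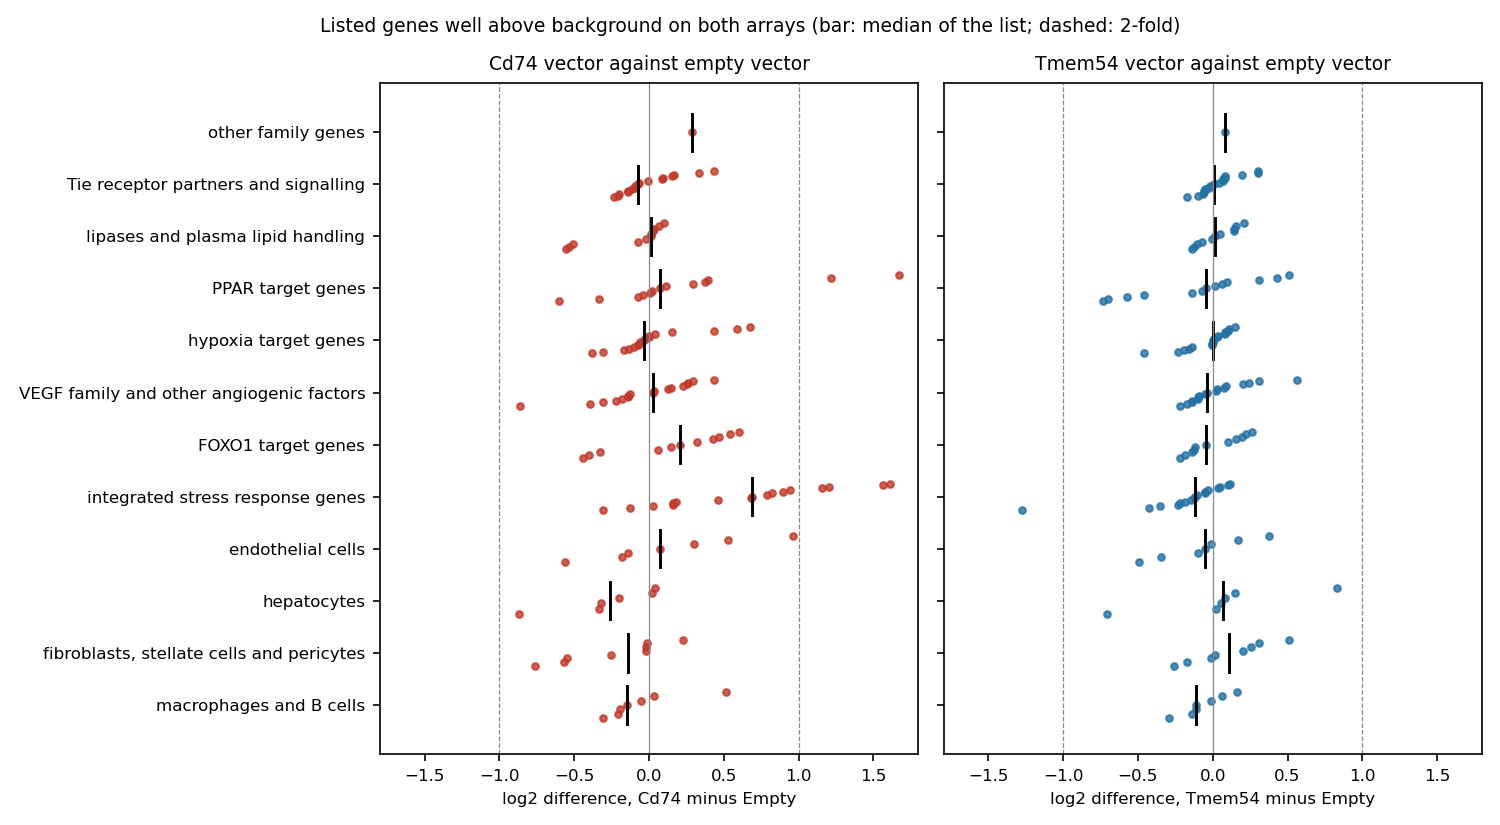
Log2 difference from the Empty array of the genes in 8 gene lists and 4 cell type marker lists, with Cd74 on the left and Tmem54 on the right. Each point is a gene well above background on both arrays, black bars are list medians and dashed lines mark 2-fold. The integrated stress response list has its median at 0.69 with Cd74 and -0.12 with Tmem54.

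Most genes listed as Tie receptor partners were detected, though Tek and Tie1 themselves were not, and they varied little. Their detection does not show that Tie signalling was present. Of 19 listed partners and signalling genes, 17 were measured on both arrays of the Cd74 comparison, none was 2-fold apart, and the median was -0.08 against 0.02 over all genes. The most different were Grb14, an adaptor that inhibits receptor kinases (0.44), Foxo1, a transcription factor downstream of Akt (0.33), Nos3 (-0.23) and Akt1 (-0.21). With Tmem54 the median was 0.01, and Ptprb, the phosphatase that opposes Tek, had 153 on the Cd74 array, 219 on the Tmem54 array and 176 on the Empty array. Of 15 listed FOXO1 target genes, 11 were measured for Cd74 minus Empty with a median of 0.21, and none reached 2-fold. Trp53inp1 (0.60) and Gadd45a (0.54), both growth-arrest or stress genes, were the highest and the antioxidant gene Sesn1 (-0.44) the lowest.

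Other vessel growth factors gave 1 difference past 2-fold, lower for Cd74 minus Tmem54, beside 1.17% of all genes measured on both arrays. Of 25 genes, 17 were measured, with medians of 0.03 for Cd74 minus Empty and -0.04 for Tmem54 minus Empty. Fgf1, which encodes a fibroblast growth factor, had 149 on the Cd74 array, 420 on the Tmem54 array and 283 on the Empty array. It ran in the order of Angpt1, with differences of -0.86, 0.56 and -1.42 for Cd74 minus Empty, Tmem54 minus Empty and Cd74 minus Tmem54. Vegfa differed by 0.43 with Cd74 and by -0.14 with Tmem54. Of 18 hypoxia target genes, 17 were measured, with a median of -0.04 for Cd74 minus Empty and none past 2-fold, the highest being Ndrg1 (0.67) and Ero1a (0.59).

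The lipases and lipoprotein genes on which Angptl4 acts were near 0. Of 14, 11 were measured, with medians of 0.01 with Cd74 and 0.02 with Tmem54 against Empty and none past 2-fold. Lpl, the lipase that Angptl4 inhibits, differed by 0.01 and 0.21. Lower with Cd74 were Apoc2, a lipase cofactor (-0.56), and the endocytic receptor gene Lrp1 (-0.51). Among 18 PPAR target genes, which include Angptl4, 13 were measured for Cd74 minus Empty with a median of 0.07. Acot2 (1.67) and Creb3l3, a liver transcription factor (1.22), passed 2-fold higher, beside 0.422% of all genes measured on both arrays. Creb3l3 was dim, with 29.7 on the Cd74 array, 16.8 on the Tmem54 array and 13.4 on the Empty array, close to the lowest signal above background there, and a model error of 0.37. With Tmem54 none did, and Vnn1 (-0.73) and Angptl4 (-0.70) were the lowest.

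Some genes of the integrated stress response, a program with the transcription factor ATF4 at its centre, were higher on the Cd74 array, where Angptl6 was also highest. Of 17 measured genes 4 were at least 2-fold higher with Cd74 than with Empty, beside 0.422% of all genes measured on both arrays, and 13 were within 2-fold. The median was 0.69 against 0.02 over all genes, and Ddit4 (-0.31) and Psat1 (-0.13) lay below 0. The 4 genes were Trib3, a pseudokinase (1.61), Slc7a11, a cystine transporter (1.57), Ppp1r15a (1.20) and Chac1 (1.16). With Tmem54, Slc7a11 was 2-fold lower (-1.28) and the list median was -0.12. For Cd74 minus Tmem54, 5 were at least 2-fold higher, beside 0.963% of all genes measured on both. Slc7a11 (2.84) and Trib3 (1.96) were the largest. The part of this list in the Angptl6 difference was not tested.

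Markers went with the line's label in part, and markers of other cell types were detected too. Of 13 hepatocyte markers 6 were well above background on each array. The oncofetal gene Afp had 24693 on the Cd74 array, 26705 on the Tmem54 array and 25519 on the Empty array. Hnf4a, Ttr, Apoa1, Apob, Fgb, Cps1 and Ahsg were not well above background. Their summed level relative to the 75th percentile was 102 with Cd74, 132 with Tmem54 and 120 with Empty, of which the transferrin gene Trf made up 54.5%, 55.9% and 58.1%. Alb ran in the order of Angpt1, with 2993 on the Cd74 array, 10261 on the Tmem54 array and 5727 on the Empty array, differences of -0.87 and 0.83 from Empty. Of 11 markers of macrophages and B cells 7, 7 and 8 were well above background on the Cd74, Tmem54 and Empty arrays. Their summed level was 19.5, 19.5 and 20.2. On these arrays Ptprc had 3096, 3461 and 3711, Csf1r 3001, 3811 and 3626, and Itgam 2352, 2552 and 2557. Adgre1, Clec4f and Cd79a were not well above background.

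Among endothelial markers 7 of 14 were well above background on each array, and Cdh5, Kdr, Emcn, Robo4, Cldn5, Erg and Tal1 were not, like Tek and Tie1. Their summed level relative to the 75th percentile was 5.17 with Cd74, 4.80 with Tmem54 and 4.84 with Empty. Esam alone made up 85.9%, 87.4% and 87.4% of these sums, so they say little of the other markers. Vwf, a clotting factor carrier of endothelium, was at 126 on the Cd74 array, 48.4 on the Tmem54 array and 67.5 on the Empty array, a difference of 1.45 for Cd74 minus Tmem54. The detected endothelial markers did not move together. For Cd74 minus Empty 4 lay above 0 and 3 below (median 0.07, against 0.02 over all genes). Vwf was the highest of them (0.96) and Pecam1 the lowest (-0.56). Of 14 markers of fibroblasts, stellate cells and pericytes, cells that make Angpt1 in many tissues, 9, 9 and 8 were well above background on the Cd74, Tmem54 and Empty arrays. Their summed level was 140.3, 119 and 132 on these arrays, of which Dcn made up 82.1%, 69.0% and 74.5%. Of the 8 measured for Cd74 minus Empty 7 lay below 0 (median -0.14, against 0.02 over all genes). Among these, Pdgfra, Col1a2 and Des were each at -0.02, within their model errors of 0.21, 0.28 and 0.22. Of the 8 for Tmem54 minus Empty 5 lay above 0 (median 0.11, against 0.0004 over all genes), with Des at 0.01. Lrat, Rgs5, Lum, Thy1 and Reln were not well above background. Within that list Col1a1 (-0.76 and 0.31), Col3a1 (-0.57 and 0.51) and Pdgfrb (-0.55 and 0.20) ran in the order of Angpt1. Dcn (0.22 and -0.26), Acta2 (-0.25 and -0.01), Pdgfra (-0.02 and -0.17) and the dim Cspg4 (at least 0.83 and 0.69) did not. The part of these markers in the Angpt1 difference was not tested. In bulk RNA, fewer cells making a transcript and less of it per cell cannot be told apart.

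**Figure D4:**
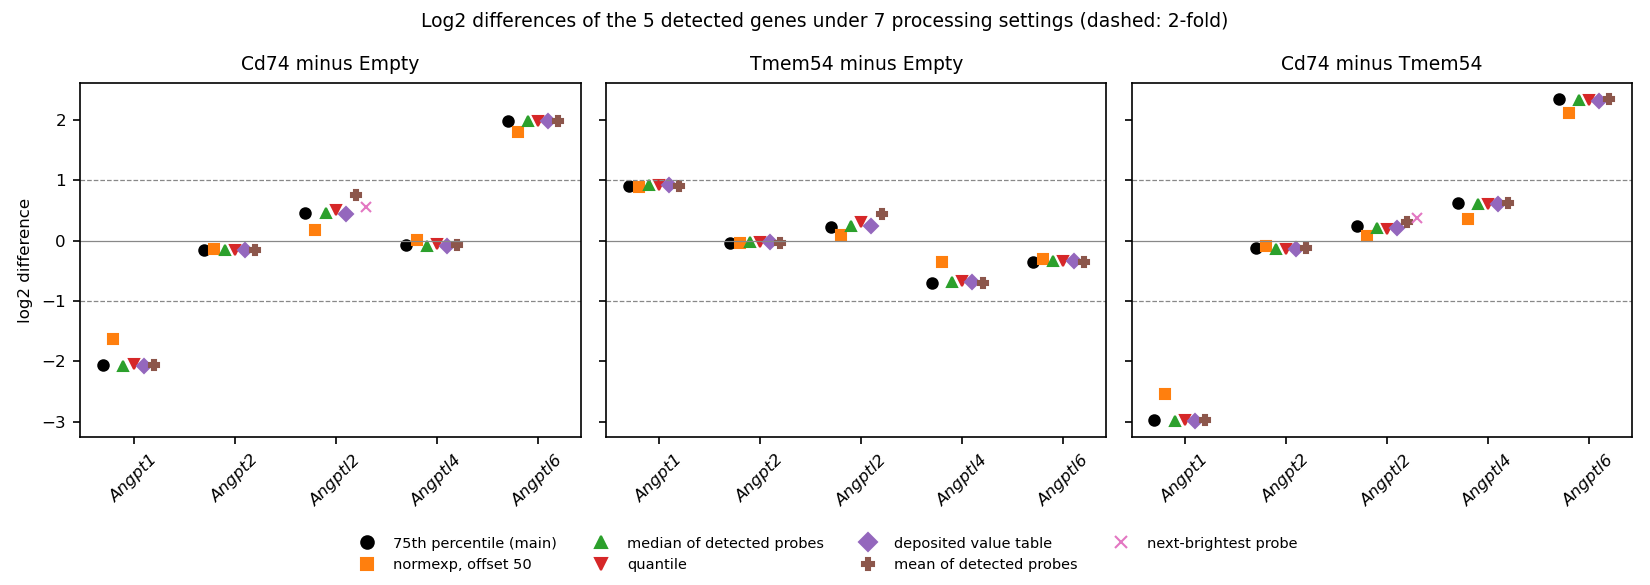
Log2 differences of Angpt1, Angpt2, Angptl2, Angptl4 and Angptl6 for Cd74 minus Empty, Tmem54 minus Empty and Cd74 minus Tmem54. Each symbol is 1 processing setting and dashed lines mark 2-fold. Angpt1 stays between -2.07 and -1.64 and Angptl6 between 1.79 and 1.98 for Cd74 minus Empty.

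With the background corrected by the normexp method, Angpt1 gave -1.64 for Cd74 minus Empty and stayed 2-fold lower. Angptl4 gave -0.36 in place of -0.70 for Tmem54 minus Empty under that method, and 0.36 in place of 0.63 for Cd74 minus Tmem54. Averaging the Angptl2 probes detected on any array gave 0.75 in place of 0.46 for Cd74 minus Empty, and normexp gave 0.18. The average takes in the middle probe, whose signal on the Empty array (9.46) was not well above background.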

How the data were processed

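RNA of 3 cultures was read on 1-colour Agilent arrays (Cy3), 1 per vector, grouped by the transfection label. The authors' deposited files hold a processed signal, a linear intensity after background subtraction and detrending, which Agilent Feature Extraction (version 12.0.3.1) wrote, per the file headers and the submitters' processing notes. Control spots and outlier spots (119 to 135 per array) were left out. The value used was the log2 intensity minus the array's 75th percentile. The deposited value table is the linear processed signal divided by 1 constant per array, uncentred, with column medians of 0.0393, 0.0390 and 0.0409 for Cd74, Tmem54 and Empty; it served as an alternative.

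A gene took its brightest probe (mean over the arrays) of those that cleared background by the scanner's flag on any array. Where it did so on only 1 of a pair, a bound is given. Its lower side is the probe's own signal on the dim array or, if larger, the smallest signal flagged as above background there. Symbols came from a GRCm38.p6 table (33757 probes by accession, 9870 by symbol, 302 by synonym, 12665 unmatched).

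With 1 array per vector no test was run, and the number of arrays limits the precision. Members and lists were chosen with earlier results of these data known. The text names all members and the 3 genes nearest to each detected member. From the lists it names genes past 2-fold or up to 4 with the largest difference. Lpl, Ptprb, the other named cell type markers and the neighbouring genes are named for their role. Some listed genes are not reported here. The counting step was tested on simulated data with planted fold differences, which checks the code only. It does not bear on whether a difference would recur in another culture. Python 3.11.15, pandas 2.3.3, R 4.3.3 and limma 3.58.1 (normexp, offset 50) were used.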

Additional observations from a re-analysis of the deposited data

How the results depend on the processing

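Alternatives were normexp background correction, scaling to the median of detected probes, quantile normalization, the deposited value table, the mean of detected probes and other filters on dim probes. Of 77 alternative values of single genes, 76 lay on the same side of 0 as reported and 70 moved by less than the model error. Many of these values had little room to differ. The mean of detected probes repeats the reported value for Angpt1, Angpt2, Angptl4 and Angptl6, which have a single detected probe each. Scaling to the median and the deposited value table shift all genes of an array by the same constant, so they vary the array scaling only. The exception in sign was Angptl4 for Cd74 minus Empty, 0.0018 with normexp against -0.07. With normexp Angpt1 gave -1.64 for Cd74 minus Empty and -2.53 for Cd74 minus Tmem54, and Angptl6 gave 2.11 for Cd74 minus Tmem54. The counts of these genes past 2-fold stayed as reported under the settings run.

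Counts over all genes moved more. Reported counts higher and lower were 160 and 219 for Cd74 minus Empty, 81 and 126 for Tmem54 minus Empty, and 251 and 261 for Cd74 minus Tmem54. With normexp they were 58 and 61, 32 and 34, and 94 and 103. With probes well above background on all 3 arrays they were 56 and 125, 23 and 57, and 138 and 170. With no filter on dim probes they were 753 and 860, 515 and 836, and 946 and 756. The filter alternatives test fewer or more genes by construction, and for normexp the cause was not tested.

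No paired analysis was possible because each vector has 1 array, and leaving out an array was not run for the same reason. Dim probes such as those of Angptl2 lie close to background, which limits their differences.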
